A study of Mus musculus with 8 samples.

Results

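The subject here is the RNA content of wild-type mouse oocytes at birth: 4 tubes of oocytes from ovaries of postnatal day 1 (P1), measured by RNA sequencing. The 4 tubes were chosen by their wild-type genotype label from a series of 8 samples, and the other samples, from Rbpms2 knockout mice, were not used. Ovaries had been dissociated with collagenase and trypsin, and 5 to 10 cells judged to be primordial oocytes were picked by mouth pipette into each tube, where their mRNA was amplified for 18 cycles. The labels give no strain, no agent and no allele other than wild type, name no marker for the picking, and leave unsaid whether each tube came from another animal. The spread between tubes given below may therefore be technical in part, and p-values were not computed.

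Around birth, mouse oocytes leave their germ cell cysts, complete meiotic prophase up to the diplotene arrest and become enclosed by flat pregranulosa cells as primordial follicles. A set of oocyte transcription factors, FIGLA, NOBOX, SOHLH1, SOHLH2 and LHX8 among them, drives the switch to the oocyte programme, which includes the genes of the egg coat. An oocyte also stores RNAs that are used during growth, at fertilisation or in the early embryo. Values are given in FPKM, fragments scaled to exon length and to the depth of the library, so that levels of different genes can be set beside each other.

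The table listed 21959 genes. A gene is called detected where it had at least 1 FPKM in all 4 tubes, which held for 9503 genes (43.3%). Counts of detected list members below are to be set beside that share. Of the 9503 genes, tubes 1 to 4 were highest for 29.0%, 19.7%, 29.9% and 21.4%, and lowest for 27.5%, 16.6%, 31.9% and 24.1%. A further 4738 genes were listed at 0 in every tube. The median level of the detected genes was 10.8 FPKM, 573 genes averaged at least 100 FPKM, and 18 genes had at least 1000 FPKM in every tube. The reads behind these values numbered 11941357, 9935053, 8440665 and 8321943 in tubes 1 to 4, and 10510, 10838, 11640 and 10984 genes had at least 1 FPKM in each. No pair of tubes agreed within sampling noise, so none was a library deposited again. Tube 3 stood apart: it held the highest sums of granulosa, stromal, immune, mast cell and early response genes, and globin RNAs were high in tubes 1 and 3. The values behind this are given with the markers of other cells, and results that tube 3 moves are given with and without it.

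**Figure D1:**
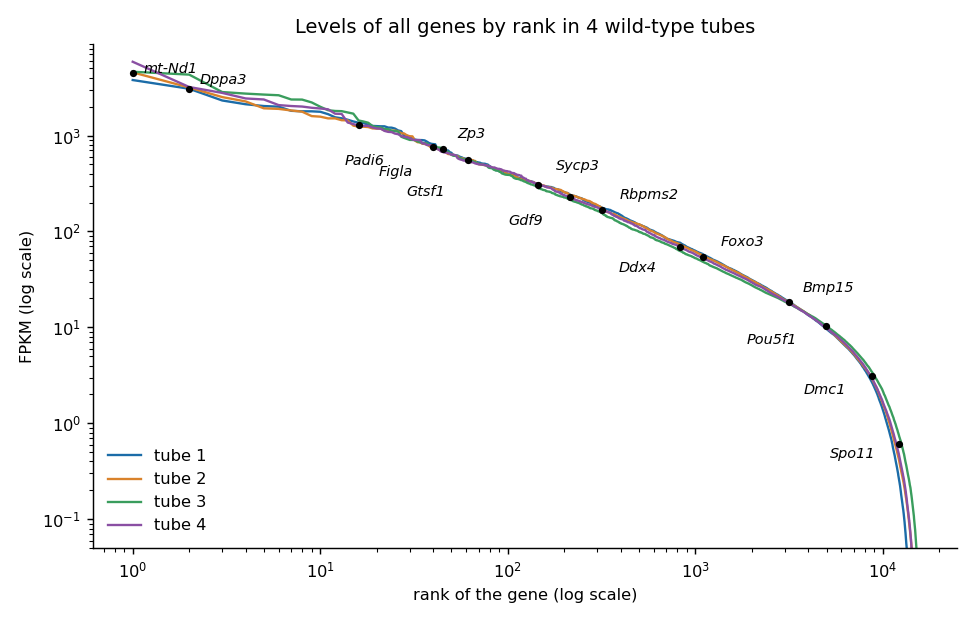
FPKM of every gene (log axis) against its rank (log axis) in each of the 4 tubes, shown as lines, with the mean level and rank of 15 oocyte genes as points. The lines lie close together down to about 1 FPKM, with mt-Nd1 at rank 1, Dppa3 at rank 2, Rbpms2 at rank 317 and Spo11 at rank 12114.

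By the mean of the 4 tubes, the most abundant nuclear transcript was that of a maternal-effect gene. Dppa3 (ENSMUSG00000046323, chromosome 6, 122626410 to 122630272 in GRCm38), which protects DNA methylation in the zygote, had 3788, 3166, 2374 and 2780.5 FPKM in tubes 1 to 4. Its mean of 3027 ± 601 FPKM (SD, n = 4) put it at rank 2 of all genes, behind the mitochondrial mt-Nd1. In tube 3, however, Rplp1 (2839 FPKM), Ndufa1 (2735 FPKM) and Hba-a1 (2629 FPKM) were above Dppa3. The level of Rplp1, the next nuclear gene by mean, is uncertain, since 60% of its 50-base stretches occurred in another annotated gene. Padi6 (ENSMUSG00000040935, chromosome 4, 140727355 to 140742643), on which the lattices of the oocyte cytoplasm depend, had 1769, 849, 829 and 1688 FPKM, a mean of 1284 ± 515 FPKM (SD, n = 4) and rank 16. Tubes 1 and 4 were about equally high for Padi6 and tubes 2 and 3 about equally low, whereas Dppa3 was lowest in tube 3 and highest in tube 1.

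Among the 30 highest nuclear genes, the largest single class was that of ribosomal proteins, led by Rplp1 with 2415 ± 311 FPKM (SD, n = 4). Uchl1, a deubiquitinating enzyme known from neurons and germ cells, ranked 8 with 2319, 1825, 1359.5 and 1946 FPKM in tubes 1 to 4. Cks2, a binding partner of cyclin-dependent kinases that meiosis requires, ranked 12 with 1401, 1572, 1123 and 2029.6 FPKM. Ldhb, the heart-type subunit of lactate dehydrogenase, ranked 15 with 1809, 1439, 799 and 1212 FPKM. For Uchl1 and Ldhb the lowest value was that of tube 3, and for Cks2 the highest was that of tube 4. Others of these 30 were Ndufa1, Cox6a1, Cox4i1 and Uqcr11 of the respiratory chain, the cytoskeletal genes Tmsb10 and Actb, the chaperone genes Hsp90ab1 and Hsp90aa1, Skp1a and Ubb of the ubiquitin system, Tmem14c, Mif, Eef1a1 and Ptma, and the globin genes Hba-a1 and Hbb-bs. The 10 highest genes held 6.7% to 8.94% of the summed FPKM of a tube, the 100 highest 26.2% to 29.4%, and the 1000 highest 63.1% to 63.8%.

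The transcription regulators of the oocyte were all detected, 15 of 15 measured members of the list, with a median of 54.4 FPKM. Figla (ENSMUSG00000030001, chromosome 6, 86016171 to 86020996), a basic helix-loop-helix factor that activates the egg coat genes, had 820.5, 749, 693 and 795 FPKM in tubes 1 to 4, a mean of 764 ± 55.9 FPKM (SD, n = 4) and rank 40. Its coefficient of variation (CV, the SD over the mean) was 7.31%, against a median of 21.6% over all genes averaging at least 10 FPKM, so Figla was among the steadier transcripts. Sohlh1, another factor of that family, had 836, 714, 548 and 896 FPKM and Nobox, an oocyte homeobox gene, 508, 406, 332 and 562 FPKM. Both were lowest in tube 3 and highest in tube 4. Lhx8, a LIM homeobox gene, had 246 ± 55.98 FPKM (SD, n = 4), Sohlh2 43.3 ± 17.6 FPKM (SD, n = 4), Taf4b 18.5 ± 5.45 FPKM (SD, n = 4) and Stat3 54.4 ± 3.81 FPKM (SD, n = 4). The lowest of the list was Zfp322a with 5.07 ± 1.41 FPKM (SD, n = 4).

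The egg coat genes were among the abundant transcripts. All 6 of 6 members of the list of zona pellucida and fertilisation surface genes were detected, with a median of 182 FPKM. Zp3 (ENSMUSG00000004948, chromosome 5, 135980099 to 135988624) had 898, 444, 462 and 1091 FPKM in tubes 1 to 4, and Zp2 (ENSMUSG00000030911, chromosome 7, 120126772 to 120145291) 811, 511, 387 and 709 FPKM. Zp1 (ENSMUSG00000024734, chromosome 19, 10914287 to 10920632) had 185, 186, 226 and 309 FPKM. Zp3 and Zp2 were higher in tubes 1 and 4 than in tubes 2 and 3, and Zp1 was highest in tube 4. The ranges of Zp3 and Zp2 overlapped, and every value of Zp1 was below every value of both. Cd9, the tetraspanin of the egg membrane needed for sperm fusion, had 138 ± 45.6 FPKM (SD, n = 4). Astl, the protease ovastacin that cleaves the coat after fertilisation, had 32.4 ± 14.2 FPKM (SD, n = 4), and Izumo1r (Juno), the sperm receptor, 15.6 ± 4.57 FPKM (SD, n = 4).

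FIGLA and its partners bind E-boxes, for which the letters CANNTG are the general form, so the bases upstream of oocyte genes with a reference start are shown for Zp3, Padi6, Nobox and Sohlh1. Zp3, at rank 45, stands for the egg coat, since the reference table held no entry for Zp1 and Zp2. Each run is the 250 bases before the transcription start, 5′ to 3′ on the strand of the gene, from RefSeq (GRCm38.p6), with every CANNTG in capitals. They lie at chr5:135979855-135980104 (plus strand) for Zp3, chr4:140742644-140742893 (minus strand) for Padi6, chr6:43309555-43309804 (minus strand) for Nobox and chr2:25847249-25847498 (minus strand) for Sohlh1.
Zp3: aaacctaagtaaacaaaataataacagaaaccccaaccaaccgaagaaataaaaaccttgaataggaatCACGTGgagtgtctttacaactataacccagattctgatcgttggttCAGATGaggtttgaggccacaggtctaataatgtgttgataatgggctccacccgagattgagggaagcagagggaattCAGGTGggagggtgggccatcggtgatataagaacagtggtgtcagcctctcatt
Padi6: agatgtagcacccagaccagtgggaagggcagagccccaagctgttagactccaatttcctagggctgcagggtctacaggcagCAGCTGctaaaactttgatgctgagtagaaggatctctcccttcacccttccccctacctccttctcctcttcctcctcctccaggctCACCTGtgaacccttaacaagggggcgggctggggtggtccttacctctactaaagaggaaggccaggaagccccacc
Nobox: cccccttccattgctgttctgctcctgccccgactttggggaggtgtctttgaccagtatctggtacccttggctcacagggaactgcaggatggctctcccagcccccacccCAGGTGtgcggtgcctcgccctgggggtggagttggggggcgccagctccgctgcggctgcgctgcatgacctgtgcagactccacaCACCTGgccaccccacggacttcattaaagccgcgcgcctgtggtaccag
Sohlh1: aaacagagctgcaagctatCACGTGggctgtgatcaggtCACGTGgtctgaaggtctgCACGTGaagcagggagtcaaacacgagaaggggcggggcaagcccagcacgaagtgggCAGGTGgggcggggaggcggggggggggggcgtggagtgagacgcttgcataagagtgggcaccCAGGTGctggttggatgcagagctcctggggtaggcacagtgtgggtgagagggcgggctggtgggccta
The Zp3 run holds 3 matches, which begin 181, 134 and 55 bases before the start, and the Sohlh1 run holds 5, of which the most distant begins 231 bases and the nearest 70 bases before it. Padi6 and Nobox hold 2 each. The motif reads the same on either strand, and no other motif was searched. It was common everywhere: 62.3% of 16500 genes with a matched entry held at least 1 match in these 250 bases, 55.7% of the 7647 detected genes among them, and 55% of the 100 highest. The matches describe the sequence only and do not single these genes out.

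Secreted factors of the oocyte differed widely in level. Of the list of oocyte-secreted and follicle communication genes, 9 of 13 were detected, with a median of 12.6 FPKM. Gdf9 (ENSMUSG00000018238, chromosome 11, 53431023 to 53437904), a growth factor of the TGF-beta family that acts on granulosa cells, had 191, 142, 206 and 383 FPKM in tubes 1 to 4. Its relative Bmp15 (ENSMUSG00000023279, chromosome X, 6314107 to 6320721) had 13.5, 11.97, 13.05 and 34.4 FPKM. Both were highest in tube 4, and Gdf9 was above Bmp15 in every tube. Kit, the receptor through which granulosa cells promote oocyte survival and growth, had 240.4, 229, 171 and 235 FPKM, and Gja4 (connexin 37), the gap junction protein between oocyte and granulosa cells, 108 ± 27.7 FPKM (SD, n = 4). Oosp2, a secreted oocyte protein, had 33.97, 6.24, 42.1 and 51.9 FPKM, with tube 2 far below the others. The cadherin gene Cdh1 had 12.6 ± 4.57 FPKM (SD, n = 4) and Jag1, a Notch ligand of the oocyte, 20.7 ± 5.12 FPKM (SD, n = 4). Members with a mean under 1 FPKM were Oosp3, Fgf8 and Cdh2, at 0.769, 0.686 and 0.403 FPKM.

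The subcortical maternal complex, a protein assembly under the egg membrane that early embryos need, was present in RNA with 8 of 9 members detected and a median of 254 FPKM. Beside Padi6, Zbed3 had 387, 267, 159 and 467 FPKM in tubes 1 to 4 and Ooep 449, 327, 161 and 209.9 FPKM. Zbed3 was highest in tube 4 and Ooep in tube 1, and both were lowest in tube 3. Tle6 had 272 ± 25.3 FPKM (SD, n = 4), with a CV of 9.3%, and Nlrp14, Nlrp4f and Nlrp5 had 254 ± 70 FPKM, 204 ± 48.1 FPKM and 187 ± 71.1 FPKM (SD, n = 4 each). Khdc3 was lower, at 16.4 ± 10.9 FPKM (SD, n = 4), and Nlrp2 had a mean of 0.325 FPKM. The level of Khdc3 is uncertain, since 42.8% of the 50-base stretches of its transcript occurred in another annotated gene. No member of this list was highest in tube 2 or tube 3. Tube 4 was highest for 6 and tube 1 for 3, whereas over all detected genes tube 4 was highest for 21.4% and tube 1 for 29.0%.

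Other maternal-effect genes had a median of 16.8 FPKM, and 13 of 20 were detected. Npm2, an oocyte histone chaperone, had 453, 288, 309 and 681 FPKM in tubes 1 to 4, and H1foo, the linker histone of the oocyte, 199, 94.6, 62.6 and 246 FPKM. Tube 4 was highest for both, followed by tube 1. Zfp57 and Trim28, which keep imprints in the embryo, had 52.04 ± 15.7 FPKM (SD, n = 4) and 46.3 ± 20.4 FPKM (SD, n = 4), Btg4, an adaptor for RNA clearance at maturation, 42.3 ± 11.6 FPKM (SD, n = 4), and Zar1 16.3 ± 7.95 FPKM (SD, n = 4). Low members were Nlrp9a, Nlrp9b, Nlrp4e and Nlrp9c, at 0.6, 0.423, 0.384 and 0.00506 FPKM. The level of Nlrp4e is uncertain, since 36.9% of its 50-base stretches occurred in another annotated gene. Tube 4 was highest for 12 of the 20 measured members, against 21.4% of all detected genes.

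**Figure D2:**
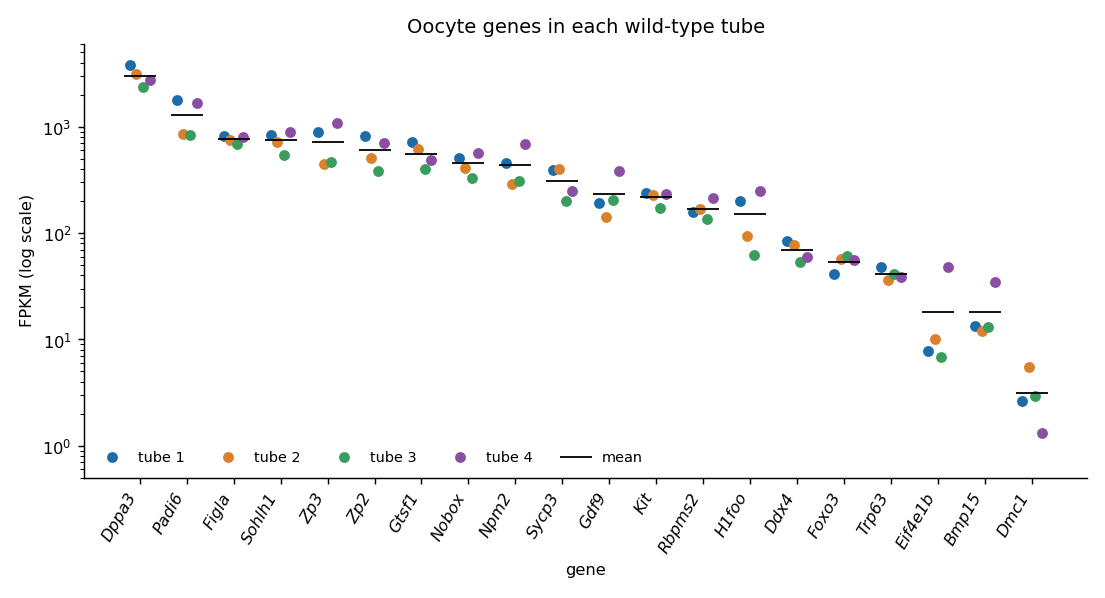
FPKM (log axis) of 20 oocyte genes in each of the 4 tubes (points) with the mean of the tubes (bars). Figla, Foxo3 and Trp63 lie close together across tubes, whereas Padi6, Zp3, Npm2 and H1foo are higher in tubes 1 and 4 than in tubes 2 and 3, and Eif4e1b and Bmp15 are highest in tube 4.

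Levels of meiotic prophase genes ranged widely, from 0.0279 FPKM to 308 FPKM on average, and several genes of the synaptonemal complex were among the highest. Of the list of meiotic prophase genes, 35 of 42 were detected, with a median of 8.33 FPKM, or 8.96 FPKM without tube 3. Sycp3 (ENSMUSG00000020059, chromosome 10, 88459569 to 88473236), of the axis, had 389, 397, 200.4 and 248 FPKM in tubes 1 to 4, and Sycp1, the transverse filament, 175, 242, 262 and 236 FPKM. Smc1b, a meiotic cohesin subunit, had 202, 235, 238 and 191 FPKM. Sycp3 was lower in tubes 3 and 4 than in tubes 1 and 2, whereas Sycp1 was lowest in tube 1 and the tubes of Smc1b differed little. The central element genes Syce2 and Syce1 had 249 ± 53.6 FPKM and 159.8 ± 53.5 FPKM, Tex12 113 ± 47.1 FPKM and Syce3 53.7 ± 10.9 FPKM (SD, n = 4 each). Hormad1, of unsynapsed axes, had 49.6, 97.6, 46.3 and 38.8 FPKM and was highest in tube 2.

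Other members were low. Spo11, which makes the meiotic breaks, had 1.39, 0.231, 0.151 and 0.674 FPKM in tubes 1 to 4, a mean of 0.611 FPKM. Dmc1, the meiotic strand exchange protein, had 2.65, 5.54, 2.92 and 1.33 FPKM. Mnd1 and Psmc3ip, cofactors of strand exchange, were higher than Dmc1 in every tube. They had 78.4 ± 20.4 FPKM (SD, n = 4) and 46.5 ± 6.4 FPKM (SD, n = 4). The level of Mnd1 is uncertain, since 40.8% of its 50-base stretches occurred in another annotated gene. Mlh3, which marks crossovers, had 5.59 ± 1.42 FPKM (SD, n = 4), and Msh4 and Msh5, which stabilise crossover intermediates, 4.58 ± 0.611 FPKM (SD, n = 4) and 1.75 ± 0.81 FPKM (SD, n = 4). Stra8, required for meiotic entry, had a mean of 0.0279 FPKM, from 0, 2, 0 and 0 reads in tubes 1 to 4. The cohesin gene Rec8, also of the axis, had 0.0285, 0.514, 1.53 and 0.45 FPKM and its relative Rad21l 4.8 ± 2.78 FPKM (SD, n = 4). Spata22 had a mean of 0.816 FPKM, which is uncertain since 79.7% of its 50-base stretches occurred in another annotated gene. Rec8 and Spo11 were thus under 1 FPKM on average, and Stra8 was at the level of single reads.

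Germ cell and piRNA pathway genes, which guard the genome against transposons, had a median of 39.6 FPKM, with 21 of 25 detected. Gtsf1, a partner of PIWI proteins, had 711, 613, 399.7 and 483 FPKM in tubes 1 to 4 and rank 61. Mael had 329, 301, 174 and 246 FPKM and Dazl, an RNA-binding protein of germ cells, 275, 315, 185 and 224 FPKM. All of these were lowest in tube 3. Ddx4 (vasa; ENSMUSG00000021758, chromosome 13, 112598333 to 112652475), the classic germ cell helicase, had 84.2, 77.8, 54.01 and 59.9 FPKM, and the PIWI gene Piwil2 62.8 ± 12.8 FPKM (SD, n = 4). Its relatives Piwil1 and Piwil4 were far lower, at 1.55 ± 0.495 FPKM (SD, n = 4) and a mean of 0.711 FPKM. Mov10l1, Tdrd1 and Tdrd9 had 107 ± 20.96 FPKM (SD, n = 4), 90.2 ± 15.9 FPKM (SD, n = 4) and 58.7 ± 16.9 FPKM (SD, n = 4). Nanos3 had a mean of 0.974 FPKM, and Tdrd6 was listed at 0 in every tube, where 3 reads in any tube would have given at most 0.051 FPKM.

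RNA-binding proteins that store maternal RNAs or control their translation had a median of 18.2 FPKM, and 26 of 29 were detected. The highest was Rbpms2 (ENSMUSG00000032387, chromosome 9, 65629648 to 65660528), the gene removed in the other arm of the series, with 158, 167, 136 and 213 FPKM in tubes 1 to 4 and rank 317. Its relative Rbpms (ENSMUSG00000031586, chromosome 8, 33782643 to 33929863) had 9.86, 10.2, 12.1 and 14.6 FPKM. The mean of Rbpms2 was 14.4 times that of Rbpms, and every tube had more of Rbpms2. Cpeb1, which regulates the poly(A) tails of stored RNAs, had 156, 132, 116 and 161 FPKM, and Ybx2, the germ cell Y-box protein, 101, 93.3, 143 and 209 FPKM. Eif4e1b, the oocyte cap-binding protein, had 7.76, 10.2, 6.88 and 47.9 FPKM, with tube 4 far above the others. Tube 4 was highest for 13 of the 29 members, Ybx2 and Rbpms2 included, against 21.4% of all detected genes. Members under 1 FPKM on average were Igf2bp1 and Pabpc1l, the latter an oocyte poly(A)-binding protein, at 0.21 and 0.19 FPKM, and Boll had 1.78 ± 1.03 FPKM (SD, n = 4).

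In most of the 27 gene families compared, the highest member by mean was above the next in every tube. In 20 of the 27 the ranges of these members over the tubes did not overlap, and in 7 they did. The highest member was chosen by its mean in these same tubes, and the same share was not computed for other pairs of genes. The count is therefore no result about families as such. Tbpl2, the oocyte relative of the general TATA-binding factor, had 51.9 ± 23.3 FPKM (SD, n = 4), against 12.5 ± 5.78 FPKM for Tbpl1 and 5.53 ± 0.783 FPKM for Tbp itself. Taf4b exceeded Taf4 2.94-fold, the meiotic cohesin Smc1b exceeded Smc1a 10.7-fold, and Stag3 exceeded Stag1 3.68-fold. For the kleisin subunit the order was the reverse, with the mitotic Rad21 at 18.7 ± 6.55 FPKM (SD, n = 4), 3.88 times Rad21l. The general form also led for the cap-binding proteins, where Eif4e exceeded Eif4e1b 4.43-fold, and for the poly(A)-binding proteins, where Pabpc1 had 106 ± 14.3 FPKM (SD, n = 4).

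The ratio was largest, apart from the poly(A)-binding pair, for lactate dehydrogenase, where Ldhb exceeded Ldha 84.4-fold. Lin28a exceeded Lin28b 7.12-fold, Tet3 exceeded Tet2 5.15-fold, Ccnb2 exceeded Ccnb1 2.87-fold and Lsm14b exceeded Lsm14a 3.19-fold. The level of Ccnb1 is uncertain, since 42.1% of its 50-base stretches occurred in another annotated gene. The germline ribosomal protein copies Rpl10l and Rpl39l were both substantial, at 106 ± 36.4 FPKM (SD, n = 4) and 235 ± 50.2 FPKM (SD, n = 4), below Rpl10 and Rpl39 by 4.63-fold and 1.46-fold. Among the families whose highest members overlapped were Npm1 and Npm2, Ybx2 and Ybx1, Wee1 and Wee2, Zp3 and Zp2, Gtf2a1 and Gtf2a1l, and Bcl2l10 and Mcl1.

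Among the enzymes that write and erase DNA methylation, the maintenance machinery led. Uhrf1, the cofactor of maintenance methylation, had 186, 167, 189 and 297 FPKM in tubes 1 to 4, and Dnmt1 36.1, 42.5, 43.5 and 64.3 FPKM. The de novo enzymes Dnmt3a and Dnmt3b had 11.5 ± 3.25 FPKM (SD, n = 4) and 14.5 ± 3.12 FPKM (SD, n = 4), and their cofactor Dnmt3l, needed for imprints during oocyte growth, was listed at 0 in every tube, where 3 reads would have given at most 0.121 FPKM. Kdm1b, a histone demethylase that maternal imprints require, had 184, 176, 167 and 176 FPKM, with a CV of 3.98%. Uhrf1 and Dnmt1 were thus above the de novo enzymes in every tube, and Kdm1b was nearly constant. Tet3, the dioxygenase of the zygote, had 21.03 ± 15.3 FPKM (SD, n = 4), and Tet1 a mean of 0.478 FPKM. The histone H3.3 genes H3f3b and H3f3a had 381 ± 66.9 FPKM (SD, n = 4) and 162 ± 32.9 FPKM (SD, n = 4). Of the 23 genes of this list, 21 were detected.

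Genes of meiotic arrest and resumption were present at moderate levels, 22 of 25 detected with a median of 10.6 FPKM. Ccnb2 led with 151, 134, 105 and 127 FPKM in tubes 1 to 4, and its kinase Cdk1 had 72.3, 75.9, 35.8 and 50.8 FPKM. Both were lowest in tube 3. Fzr1, the activator of the anaphase-promoting complex that keeps arrest, had 52.4 ± 3.87 FPKM (SD, n = 4), Mos, the kinase of the later metaphase arrest, 23.5 ± 10.9 FPKM (SD, n = 4), and the inhibitory kinases Wee2 and Pkmyt1 23.7 ± 7.23 FPKM (SD, n = 4) and 22.3 ± 3.69 FPKM (SD, n = 4). Gpr3, which keeps cyclic AMP high in arrested oocytes, had 7.71 ± 2.6 FPKM (SD, n = 4) and Pde3a, which degrades it, 4.93 ± 1.7 FPKM (SD, n = 4). Gnas and Adcy3 had means of 0.657 and 0.456 FPKM.

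The list of PI3K, mTOR and FOXO genes holds genes that keep primordial follicles dormant and genes that promote their activation. Of its members, 21 of 22 were detected, with a median of 11.3 FPKM. Foxo3 (ENSMUSG00000048756, chromosome 10, 42181841 to 42276755), the transcription factor that restrains activation, had 41.5, 56.8, 60.9 and 55.9 FPKM in tubes 1 to 4, against 14.5 ± 5.37 FPKM (SD, n = 4) for Foxo1 and a mean of 0.809 FPKM for Foxo4. The kinase genes Akt2 and Akt1 had 30.8 ± 6.73 FPKM and 15.01 ± 5.39 FPKM (SD, n = 4 each). The repressors Tsc1 and Tsc2 had 11.99 ± 1.84 FPKM (SD, n = 4) and 20.2 ± 1.7 FPKM (SD, n = 4), and Mtor 10.6 ± 1.02 FPKM (SD, n = 4). Foxo3 was thus the highest FOXO gene, and its lowest tube was tube 1.

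Many, though not all, of the more abundant genes that decide the fate of damaged oocytes were at similar levels across tubes. Trp63 (ENSMUSG00000022510, chromosome 16, 25683763 to 25892102), the guardian of the oocyte pool, had 48.01, 35.9, 41.3 and 38.5 FPKM in tubes 1 to 4, above 18.1 ± 2.31 FPKM (SD, n = 4) for Trp53. Its activating kinases Chek1, Chek2 and Csnk1d had 37.4 ± 3.17 FPKM, 16.2 ± 2.95 FPKM and 24.4 ± 0.135 FPKM (SD, n = 4 each). Of its targets in cell death, Pmaip1 (NOXA) and Bbc3 (PUMA) had 2.77 ± 2.39 FPKM (SD, n = 4) and 1.41 ± 1.24 FPKM (SD, n = 4), while Bax had 42.3 ± 10.5 FPKM (SD, n = 4) and Bak1 a mean of 0.437 FPKM. Bcl2l10, a survival gene of oocytes, had 32.2, 29.9, 44.4 and 53.5 FPKM and Bcl2 a mean of 0.885 FPKM. The list had a median CV of 15.2% over its 13 members with a mean of at least 10 FPKM, against 21.6% over all such genes. Bcl2l10, with a CV of 27.6%, lay above both.

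Genes of pluripotency and of earlier germ cells were split. Of 19 listed, 8 were detected, a share of 42.1% beside the 43.3% of all genes, and the median was 1.89 FPKM, or 2.34 FPKM without tube 3 and 1.44 FPKM without tube 2. Dppa5a, an RNA-binding protein of germ cells and embryonic stem cells, had 258, 301, 200.4 and 168 FPKM in tubes 1 to 4, and Lin28a 13.9, 24.8, 28.2 and 45.5 FPKM. Pou5f1 (ENSMUSG00000024406, chromosome 17, 35506018 to 35510772), the gene of OCT4, had 12.6, 12.2, 6.64 and 9.68 FPKM. Dppa5a was lower in tubes 3 and 4, while Lin28a was lowest in tube 1 and highest in tube 4. The level of Dppa5a is uncertain, since 38.6% of its 50-base stretches occurred in another annotated gene. Sall4 and Dppa4 had 13.7 ± 5.6 FPKM (SD, n = 4) and 11.03 ± 5.04 FPKM (SD, n = 4). Sox2 and Prdm14 were listed at 0 in every tube, where 3 reads would have given at most 0.175 and 0.141 FPKM, and Nanog, Utf1, Esrrb and Alpl had means of 0.0112, 0.267, 0.565 and 0.623 FPKM.

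**Figure D3:**
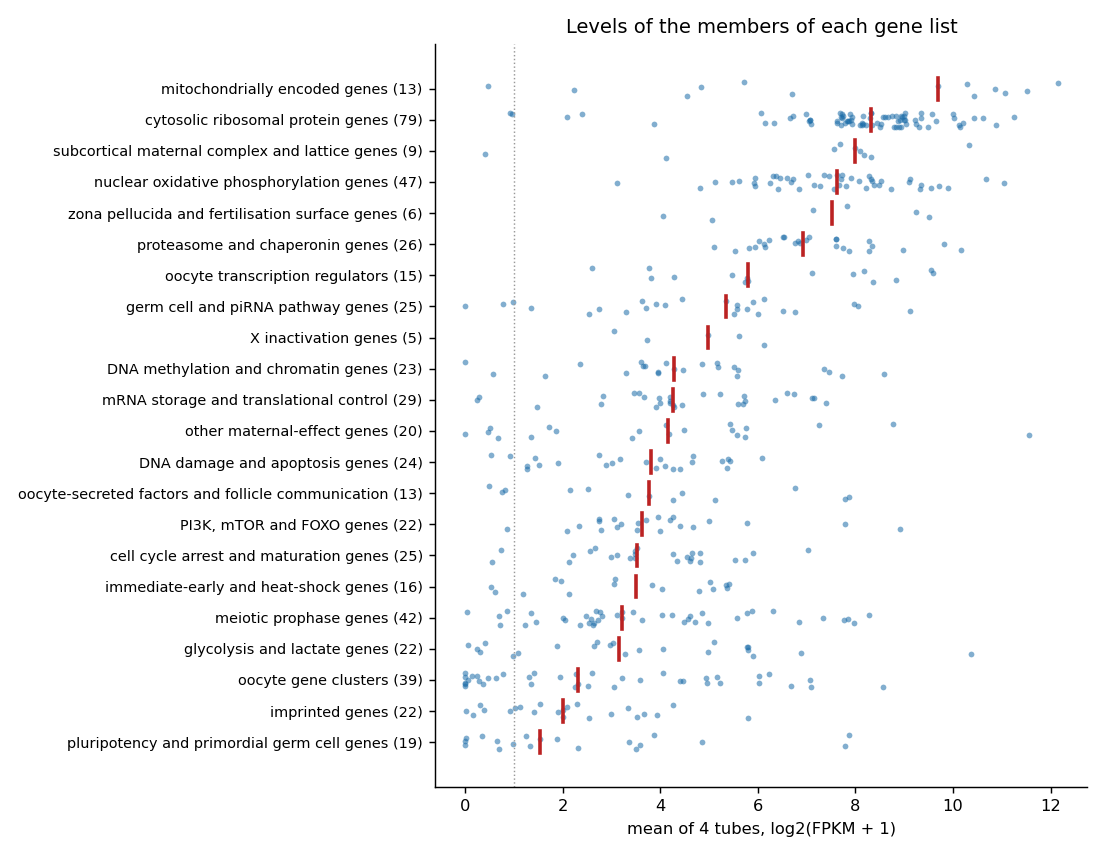
Mean of the 4 tubes on the log2(FPKM + 1) scale for each member (points) of 22 gene lists, with the number of measured members in brackets and the median of each list as a red bar. The dotted line marks 1 FPKM. Lists are ordered by their median, from 1.89 FPKM for pluripotency genes to 822 FPKM for mitochondrially encoded genes.

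Several gene families that are clustered in the genome and known from oocytes had some members at high and others at very low levels. Of 39 such genes 24 were detected, 61.5% beside 43.3% of all genes, and 13 had a mean under 1 FPKM. Tcl1 on chromosome 12 had 397, 345, 279.8 and 492 FPKM in tubes 1 to 4. Of the oligoadenylate synthetase cluster on chromosome 5, Oas1h had 204, 142, 70.1 and 120.0 FPKM, Oas1d 199, 147, 75.9 and 114 FPKM, and Oas1e and Oas1c 102 ± 46.1 FPKM and 73.7 ± 28.5 FPKM (SD, n = 4 each). Oas1h and Oas1d were highest in tube 1 and lowest in tube 3. Oas1a, Oas1b, Oas1g and Oas1f stayed under 1 FPKM on average, at 0.562, 0.287, 0.224 and 0.099 FPKM. Of the Fbxw cluster, Fbxw24 led with 63.9 ± 23.4 FPKM (SD, n = 4), followed by Fbxw15 with 36.2 ± 16.3 FPKM (SD, n = 4) and Fbxw18 with 29.5 ± 14.6 FPKM (SD, n = 4).

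The Oog and Obox genes, also known from oocytes and early embryos, were low: Oog1, Oog2 and Oog4 had means of 0.714, 0.0484 and 0.18 FPKM, Obox5 had 0.388 FPKM, and Oog3, Obox1, Obox2, Obox3 and Obox6 were listed at 0 in every tube. Levels of near-identical copies are uncertain, since reads that fit several genes may not be counted. Of the 50-base stretches of their transcripts, 88.6% for Oog1, 62.98% for Obox2, 59.3% for Obox1, 57.6% for Oas1a and 54.7% for Oas1g also occurred in another annotated gene, against 5.02% for Obox6 and 0.725% for Oog4.

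Most ribosomal protein genes were high. The list had a median of 320.3 FPKM and a median CV of 11.9%, 77 of 79 members were detected, and the genes together held 9.92%, 10.9%, 11.5% and 10.4% of the summed FPKM of tubes 1 to 4. Rplp1 had 2119, 2266, 2839 and 2435 FPKM, Rpl36 1461, 1772, 2213 and 2076 FPKM and Rps29 1208, 1128, 1215 and 1184 FPKM. Rplp1 and Rpl36 were highest in tube 3, and Rps29 had a CV of 3.35%. Among the members far below the rest were Rpl23a, Rpl13a, Rpl24 and Rps10, at 13.7, 4.28, 0.946 and 0.903 FPKM on average. Their levels are uncertain: 74.03%, 57.4%, 81.7% and 51.8% of their 50-base stretches occurred in another annotated gene, which held for over 50% of the stretches in 19 of the 79 ribosomal protein genes, among them Rplp1 and Rpl36. The same held for Eef1a1, Hsp90aa1, Ubb, Psmb5, Rps4x and Rpl10, so their levels are uncertain too.

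Genes of respiration were high, and genes of glycolysis spanned a wide range. All 47 of 47 nuclear genes of oxidative phosphorylation were detected, with a median of 195 FPKM. Ndufa1, an X-linked subunit of complex I, had 1787, 1895, 2735 and 2004 FPKM in tubes 1 to 4, Cox6a1 1360.0, 1594, 1691 and 1878 FPKM and Cox4i1 943, 983, 921 and 940.0 FPKM. Cox4i1, of complex IV, was among the steadiest genes with a CV of 2.76%, whereas Ndufa1 was highest in tube 3. The tissue-restricted subunits Cox4i2, Cox6b2 and Cox8c had 238 ± 51.9 FPKM, 129 ± 55.4 FPKM and 60.01 ± 12.7 FPKM (SD, n = 4 each). The list of glycolysis and lactate genes had a median of 7.92 FPKM with 15 of 22 detected, so Ldhb, at rank 15, stood far above its fellows. Beside it 10 of 22 members, Ldhb included, averaged at least 10 FPKM, among them Pkm with 117 ± 16.8 FPKM (SD, n = 4) and Aldoa, Tpi1 and Gpi1 with 58.6 ± 15.3 FPKM, 54.8 ± 23.4 FPKM and 54.7 ± 12.9 FPKM (SD, n = 4 each). The hexokinase genes Hk1 and Hk2 had 1.11 ± 0.676 FPKM (SD, n = 4) and a mean of 0.327 FPKM, Pfkl and Pfkp means of 0.966 and 0.232 FPKM, and the glucose transporter gene Slc2a1 8.66 ± 3.96 FPKM (SD, n = 4). Gapdh had 5.5 ± 1.18 FPKM (SD, n = 4). The levels of Eno1, Pgk1 and Gapdh, at 30.6, 53.5 and 5.5 FPKM, are uncertain, since 72.2%, 67.96% and 27.2% of their 50-base stretches occurred in other annotated genes.

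Genes of the mitochondrial genome took 3.19%, 4.12%, 5.9% and 5.17% of the summed FPKM of tubes 1 to 4. mt-Nd1 had 3073, 4553, 4623 and 5875 FPKM, mt-Co1 1670.3, 2517, 4315 and 3206 FPKM and mt-Cytb 1999, 1921, 2672 and 1913 FPKM. Tube 1 was lowest for 11 of the 13 genes, against 27.5% of all detected genes. The low values of mt-Co2, mt-Co3, mt-Atp6, mt-Nd4l and mt-Nd3, at 51.6, 27.7, 22.5, 3.68 and 103 FPKM, are uncertain, since 100%, 99.9%, 99.5%, 98.8% and 97.99% of their 50-base stretches occurred in another annotated gene. The same share was 0% for mt-Nd1 and 51.1% for mt-Co1. The gene mt-Atp8 had a mean of 0.393 FPKM although 0% of its stretches were shared, and it overlaps mt-Atp6 on the mitochondrial genome.

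Protein folding and turnover genes were detected throughout, 26 of 26, with a median of 121 FPKM. Hsp90ab1 had 1111, 1126, 1255 and 1117 FPKM in tubes 1 to 4 and Hsp90aa1 998, 822, 894 and 898 FPKM, both steady. Psmb2, Psmb5 and Psmb6, of the catalytic ring of the proteasome, had 505 ± 63.3 FPKM, 311 ± 47.5 FPKM and 307 ± 24.9 FPKM (SD, n = 4 each), and Cct2, of the chaperonin, 232 ± 46.1 FPKM (SD, n = 4). Tube 1 was highest for 15 of the 26 members, against 29.0% of all detected genes.

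Imprinted genes, which are expressed from the allele of a single parent in somatic tissue, were detected in 11 of 22 measured members, a share of 50% beside the 43.3% of all genes. Their median was 3.004 FPKM, or 2.39 FPKM without tube 3, beside a median of 1.11 FPKM over all genes. The highest was Ascl2, a transcription factor of the trophoblast, with 25.9, 63.6, 46.5 and 83.1 FPKM in tubes 1 to 4. Peg3 had 7.98, 6.97, 20.8 and 11.3 FPKM and Igf2r 11.9, 11.3, 17.8 and 16.3 FPKM. Ascl2 was lowest in tube 1 and Peg3 highest in tube 3. Snrpn and Impact had 10.5 ± 3.3 FPKM (SD, n = 4) and 18.2 ± 4.5 FPKM (SD, n = 4). Members under 1 FPKM on average were Slc38a4, Igf2, Sgce, Rtl1 and Magel2, at 0.886, 0.305, 0.24, 0.116 and 0.0064 FPKM, of which Igf2 is uncertain, since 75.9% of its stretches occurred in another gene. Tube 3 was highest for 15 of 22, against 29.9% of all detected genes, and its stromal and granulosa markers were highest too. The part of those cells in these values was not tested. Untranslated imprinted RNAs were not analysed here.

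Genes of the X chromosome were at about the level of autosomal genes. Among protein-coding genes averaging at least 1 FPKM, the 427 X-linked genes had a median of 8.67 FPKM and the 10730 autosomal genes 8.44 FPKM, a ratio of 1.03. In tubes 1 to 4 the ratio was 0.9998, 1.17, 1.11 and 0.874, so the tubes fell on either side of 1. The ratio depended on which genes were kept, with 0.846 for a mean of at least 0.1 FPKM and 1.28 for at least 10 FPKM. Beside Ndufa1, the highest X-linked genes were Rps4x, Rpl10, Ndufb11 and Alg13, with 603 ± 73.6 FPKM, 492 ± 50.1 FPKM, 416 ± 25.2 FPKM and 367 ± 58.6 FPKM (SD, n = 4 each). Ddx3x, Rlim and Eif2s3x had 68.5 ± 12.4 FPKM, 48.1 ± 13.6 FPKM and 30.4 ± 7.7 FPKM (SD, n = 4 each). The RNA Xist was not analysed here. Of 172 Y-linked genes, 2 had any read and 0 reached 1 FPKM in any tube.

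Markers of other ovarian cells were low next to the oocyte genes, but not equally so in the tubes. In pools of cells, fewer cells of a type and less RNA per cell cannot be told apart. Of 17 granulosa cell markers 1 was detected in all 4 tubes, and their summed level in tubes 1 to 4 was 2.55, 12.2, 75.2 and 21.4 FPKM. Tube 3 was highest for 13 of the 15 with any read. Foxl2, the key factor of pregranulosa cells, had 0, 0.309, 7.24 and 1.92 FPKM, Wt1 0.0811, 2.4, 13.5 and 4.29 FPKM and Kitl, the ligand of KIT, 1.26, 1.005, 7.68 and 2.32 FPKM. Each was highest in tube 3. The gonadotropin receptor gene Fshr and the aromatase gene Cyp19a1 were listed at 0 in every tube.

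Stromal markers summed to 9.32, 53.2, 118 and 53.6 FPKM in tubes 1 to 4, and 10 of 12 were highest in tube 3, among them the collagen gene Col3a1 with 0.435, 7.28, 19.6 and 5.66 FPKM. Tube 1 was lowest for 11. Endothelial markers summed to 2.27, 3.1, 2.69 and 3.22 FPKM, with 0 of 10 detected and Esam listed at 0. The median over these markers was 0.021, 0.175, 0.21 and 0.174 FPKM in tubes 1 to 4, lowest in tube 1, whereas the highest of them, the adhesion gene Pecam1, had 1.92, 1.71, 0.209 and 0.695 FPKM and was lowest in tube 3. Immune markers summed to 7.15, 13.4, 25.7 and 9.18 FPKM, with C1qa and C1qc at 0 in every tube and 7 of 12 highest in tube 3. Most of the sum of tube 3 was Tyrobp, an adaptor of immune receptors, with 0.126, 0, 15.3 and 0 FPKM. The complement gene C1qb had 6.93, 11.1, 3.48 and 4.86 FPKM, lowest in tube 3, and the macrophage gene Cd68 0, 1.6, 0.471 and 3.82 FPKM, highest in tube 4. Surface epithelium markers summed to 4.85, 7.09, 16.6 and 11.7 FPKM, steroidogenic markers to 33.05, 27.95, 62.4 and 19.9 FPKM, with Cyp17a1 and Insl3 at 0, and smooth muscle and pericyte markers to 6.67, 12.6, 25.6 and 9.23 FPKM. Hsd3b1, listed with the steroidogenic markers, reached 19.9, 18.9, 49.2 and 16.6 FPKM. The value of Insl3 is uncertain, since 61.8% of its 50-base stretches occurred in another annotated gene. As a background, 16 genes of unrelated tissues such as Alb, Ins1 and Gfap summed to 4.69, 4.26, 6.35 and 3.08 FPKM. Tube 3 was again highest. Of these 16 genes 8 were at 0 in every tube, and the median was 0 in each tube. The highest averaged 2.75 FPKM, so a single gene made up much of the sum. Tube 3 moved most of these lists: without it the median level of the members was 0.691 FPKM against 1.61 FPKM for granulosa cell markers, 0.0381 FPKM against 0.116 FPKM for immune markers and 0.146 FPKM against 0.607 FPKM for surface epithelium markers. It was 0.631 FPKM against 1.01 FPKM for steroidogenic markers and 0.0975 FPKM against 1.01 FPKM for smooth muscle and pericyte markers.

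Red cell RNAs differed widely between the tubes. Hba-a1, an alpha globin gene, had 2029, 71.2, 2629 and 5.33 FPKM in tubes 1 to 4, and the beta globin gene Hbb-bs 1297, 55.3, 1995 and 2.82 FPKM. Globin RNAs took 1.25% and 1.66% of the summed FPKM of tubes 1 and 3 but 0.0474% and 0.00318% of tubes 2 and 4. Alas2, of haem synthesis in red cells, had 15.4, 2.09, 7.25 and 1.45 FPKM, again highest in tubes 1 and 3. The embryonic globin gene Hbb-bh1 was listed at 0 in every tube and Hbb-y had a mean of 0.0795 FPKM. Between 58.3% (Hbb-bt) and 86.9% (Hba-a2) of the 50-base stretches of the adult globin genes occur in another annotated gene, so the split between copies is uncertain.

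In tube 3 alone, proteases of mast cells were high. Tpsb2 had 0.736, 2.46, 301 and 0 FPKM in tubes 1 to 4, Cma1 0.23, 1.75, 226 and 0.11 FPKM, Mcpt4 0.453, 1.45, 151 and 0 FPKM and Cpa3 0.331, 0.73, 46.1 and 0 FPKM. This list of mast cell markers was chosen after those values were seen. Of its other members, Hdc had 0.144, 0.52, 21.4 and 0.0188 FPKM, Ms4a2 0, 0, 0.674 and 0.47 FPKM and Srgn 13.5, 16.5, 16.6 and 11.7 FPKM, while Fcer1a was listed at 0 in every tube. Srgn did not follow the proteases, and Hdc and Ms4a2 were highest in tube 3. Early response genes also differed. Fos had 2.14, 14.8, 72.1 and 17.4 FPKM, Egr1 15.1, 28.6, 79.7 and 34.8 FPKM and Btg2 17.1, 44.2, 76.3 and 28.4 FPKM. Tube 3 was highest for 13 of the 16 immediate-early and heat-shock genes, against 29.9% of all detected genes. The median of that list was 10.3 FPKM, and 5.37 FPKM without tube 3. The part of other cells, and of the dissociation, in these values was not tested.

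**Figure D4:**
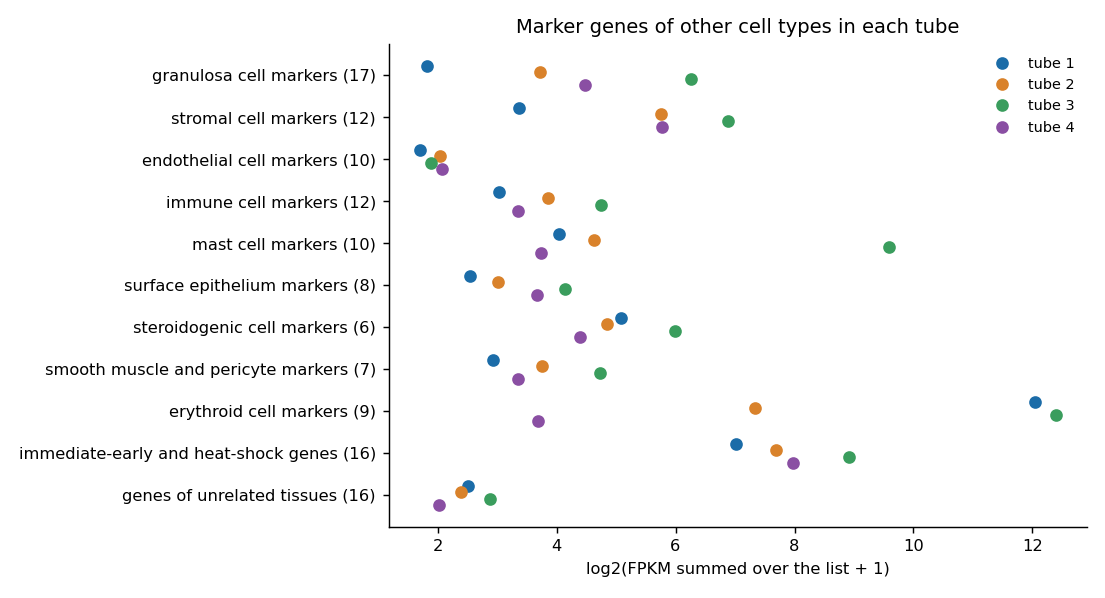
Sum of FPKM over the markers of each other cell type, and over immediate-early and heat-shock genes, on the log2(sum + 1) scale, for each of the 4 tubes (points), with the number of measured members in brackets. Tube 3 is highest in most lists, tubes 1 and 3 hold the globins, and endothelial markers and genes of unrelated tissues have low sums in every tube.

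Agreement between tubes was high, but the spread between them exceeded the counting error by far. Over the 9503 detected genes, Pearson correlations of log2(FPKM + 1) across genes, which are not independent replicates, ran from 0.900 between tubes 1 and 3 to 0.961 between tubes 1 and 2. Between tubes 1 and 2, 6.95% of detected genes were at least 2-fold apart, and between tubes 1 and 3 21.1%. The median CV among genes averaging at least 10 FPKM was 21.6%, against 3.19% from counting error alone, and 17.7% without tube 3. It was 54.6% for genes with a mean of 1 to 3 FPKM and 13.7% for those of 300 to 1000 FPKM. The depth gives a gene of 1 to 3 FPKM a median of 73.2 reads per tube. The deviation of a tube from the mean of the tubes also varied with exon length and GC content, over 9493 detected genes. Rank correlations with length were -0.200, -0.161, 0.277 and 0.0113 in tubes 1 to 4. With GC content they were -0.134, -0.109, -0.00557 and 0.255. The part of these trends in the differences between tubes was not tested.

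The 10 steadiest genes among the 1175 with a mean of at least 50 FPKM were Ncl, Hsbp1, Snrpb, Cox4i1, Rpl36a, Atp5mpl, Rpl38, Trappc1, Tma7 and Rps29. Ncl, the nucleolar protein nucleolin, had 119, 119, 119.7 and 118 FPKM in tubes 1 to 4, a CV of 0.7%, and Snrpb, of the spliceosome, 351, 345, 349 and 331 FPKM, a CV of 2.69%. The counting error alone was 0.924% for Ncl, above its CV over the 4 tubes. The 10 least steady were Cma1, Tpsb2, the globin genes Hbb-bt, Hbb-bs, Hba-a1 and Hba-a2, Gm10801, Crabp1, Lars2 and Mt4. Lars2, which encodes the mitochondrial leucyl-tRNA synthetase, had 220.0, 370.4, 1737 and 724 FPKM, highest in tube 3, and Crabp1, a retinoic acid-binding protein, 187, 489, 118 and 38.7 FPKM, highest in tube 2. Mt4, a metallothionein, had 8.63, 38.4, 67.3 and 129.5 FPKM. Of these 10 genes, 7 were highest in tube 3, 1 in tube 1, 1 in tube 2 and 1 in tube 4.

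**Figure D5:**
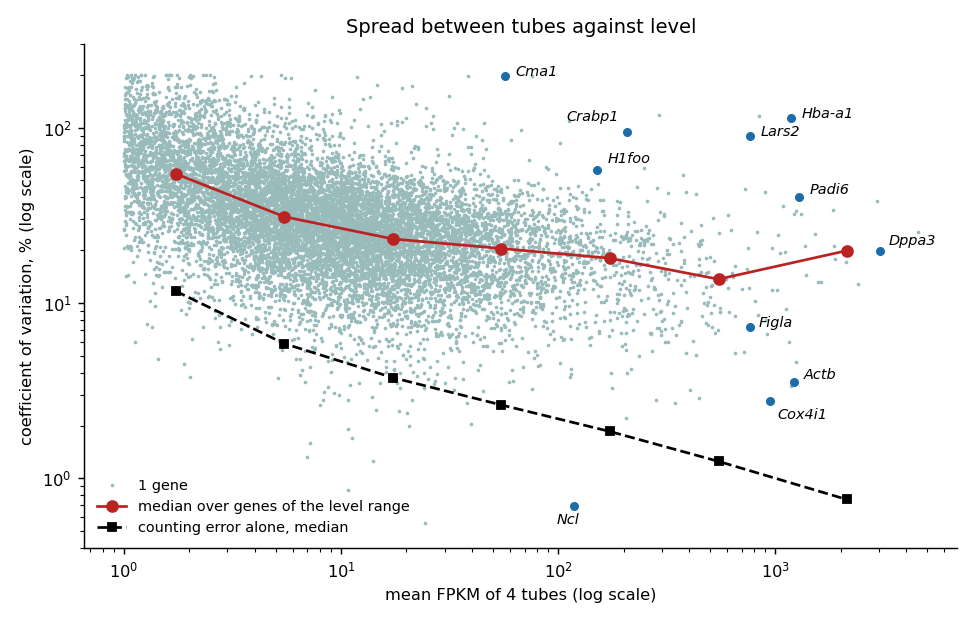
Coefficient of variation over the 4 tubes (log axis) against mean FPKM (log axis) for genes averaging at least 1 FPKM (small points), with the median per level range (circles) and the median of the counting error alone (squares). The median lies between 13.7% and 54.6%, above the counting error in every range, and Ncl, Cox4i1 and Actb lie below the median.

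In each tube some genes stood apart. Tube 1 was highest for Tubb2a (77.03, 33.8, 22.9 and 30.9 FPKM in tubes 1 to 4), Eif4a2, Fetub, Itpk1 and Bin2, and lowest for the matrix genes Sparc (1.11, 22.7, 62.6 and 19.3 FPKM), Mfap2 and Mgp, for Fos and for Mdk. Tube 2 was highest for Wfdc15a (27.3, 222, 80.8 and 79.8 FPKM), Crabp1, Tuba3a, Ccng1 and Hormad1, and lowest for Oosp2, Gm10234, Mef2b, Fbxw24 and Calr. Tube 3 was highest for the mast cell proteases, Mt1 (0.47, 3.23, 76.5 and 4.73 FPKM) and Ifitm3, and lowest for D6Ertd527e, Fkbpl (69.9, 66, 20.04 and 52.98 FPKM), Bin3, Trappc3 and Depdc7. Tube 4 was highest for Cldn6, Gng3, Rln3 (32.1, 15.6, 22.6 and 96.7 FPKM), Adad2 and Pcsk1n, and lowest for the globins and Cox7b2. The matrix genes lowest in tube 1 go with its stromal markers, which were also the lowest of the 4 tubes. Whether the tubes differed in cells picked, in animal or in amplification cannot be told apart with 1 library per tube.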

How the data were processed

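RNA of wild-type P1 oocytes was measured in 4 amplified libraries. The authors deposited FPKM values per gene, made from gene counts, and per the submitters' processing notes cutadapt, HISAT2, HTSeq and the build GRCm38 (mm10) were used. Tool versions and the gene annotation were not given in the sources used here. How HTSeq treated reads that fit several genes is not stated, and such reads can lower genes with near-identical copies. The values were used as deposited, with names and exon lengths from GENCODE M21 (21851 symbols matched of 21959).

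FPKM multiplied by exon length came in steps of 1 read. Within 0.02 reads, 97.4% to 97.6% of values were whole, and these steps gave the depths and counting errors, which cover counting error only since amplified reads without molecular identifiers are not independent molecules. All results are descriptions (means, SD, CV, ranks), with log2(FPKM + 1) for correlations, and the only test was Dixon's, for a single outlying tube. The self-test on simulated data recovered planted depths and spreads.

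Members, the 32 gene lists and the naming rule were chosen with earlier results of these data known. The rule named the 30 highest nuclear and 5 highest mitochondrial genes, the 5 highest and the members under 1 FPKM of each list, the 10 lowest and 10 highest CVs at a mean of at least 50 FPKM, 5 genes at each end per tube, family members, and key oocyte genes. Other genes were named after their values were seen, and some that the rule names are not reported here. Shared sequence was the share of 50-base stretches of a transcript found in another gene's transcripts. Not every gene with shared stretches is marked where its level is given. Among those left unmarked, the share was 35.9% for Dppa4, 35.2% for Elob, 34.4% for Pkm, 30.3% for Zar1 and 27.0% for Ldhb. Their levels are uncertain too. Promoters came from RefSeq, with the start nearest the annotated 5′ end. Software was pandas 2.3.3 and numpy 2.4.6 under Python 3.11.15, with matplotlib 3.10.9 for figures.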

Additional observations from a re-analysis of the deposited data

Results flagged for a closer look

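A single tube stood far from the other 3, by a gap to its neighbour beyond Dixon's 95% limit for 4 values, for 15 of the 104 genes whose tube values are given. In groups of 4, chance alone puts about 1 in 20 there, and the genes were not picked independently of their spread. Tube 3 was the outlying tube for most of them. It was high for the mast cell genes Tpsb2 (301 FPKM), Cma1 (226 FPKM), Mcpt4 (151 FPKM), Cpa3 (46.1 FPKM) and Hdc (21.4 FPKM), for Tyrobp (15.3 FPKM), an adaptor of immune receptors, for Mt1 (76.5 FPKM), a metallothionein, and for Hsd3b1 (49.2 FPKM). Tube 3 was also high for mt-Cytb (2672 FPKM) and Hsp90ab1 (1255 FPKM), and low for Kit (171 FPKM), the oocyte receptor of the granulosa ligand.

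Rhox6 was high in tube 3 (25.3 FPKM). Selenow was high in tube 2 (692 FPKM), although its spread was small. Tube 4 was the outlying tube for 2 oocyte genes. Bmp15 reached 34.4 FPKM there and Eif4e1b 47.9 FPKM. Among sums over marker lists, that of the mast cell markers, a list chosen after the values were seen, was set apart in tube 3 at 772 FPKM, and that of the Y-linked genes in tube 1 at 0.00552 FPKM, which is below what 3 reads would give and stands for single reads.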

How the results depend on the processing

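Of 269 recomputed values of the summary results, 248 stayed within their limit. That limit was the spread between tubes, or 1.5 times for counts. For the CV, the SD of log2 values and the correlation it was an error from leaving out each tube in turn. For shares, leaving out a tube cannot move a mean of 4 tubes beyond the spread, so those recomputations say nothing of stability. List medians have the spread between tubes as their limit too. Leaving out a tube, or rescaling by factors of 0.977 to 1.04, mostly moves them little against it. That most of them stayed within their limit therefore says little of their stability. For lists that tube 3 raises, that spread is itself wide: with a tube left out, 7 of 31 list medians above 0 moved by more than 1.5 times, 7 of them without tube 3. Values outside their limit were these. Detected genes numbered 6013 at 5 FPKM against 9503 at 1 FPKM. The 100 highest genes held 24.9% without mitochondrial genes, against 27.5%. The median CV was 28.5% for genes from 1 FPKM and 18.2% from 50 FPKM, and 17.7 to 23.1% with each tube left out in turn. The median SD of log2 values was 0.331, and 0.232 with a pseudocount of 5. The lowest correlation, 0.900, was 0.941 without a filter and 0.902 to 0.927 with tubes left out. With tubes left out, list medians ran from 8.04 to 8.96 FPKM for meiotic prophase, 1.44 to 2.34 FPKM for pluripotency and 0 to 0.0117 FPKM for unrelated tissues, the last being 0.00902 FPKM with equal totals, 0.0085 FPKM with median-of-ratios scaling and 0 FPKM as a median over tubes. The ratio of X-linked to autosomal medians was 0.846 from 0.1 FPKM and 1.28 from 10 FPKM. The cause of these shifts was not tested, beyond the genes or tubes that each setting adds or drops. Ranks of named genes moved by more than their spread between tubes in 21 of 520 recomputations. No paired analysis was possible because only 1 group was described. Values well under 1 FPKM rest on few reads, and 4 tubes give an SD only roughly.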

Other observations

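Beside the programmes above, several genes of protein tagging were among the abundant transcripts. A list of ubiquitin and NEDD8 pathway genes was chosen after the values were seen, so its count and median depend on that choice. All 24 of 24 members were detected, beside 43.3% of all genes, with a median of 106 FPKM. Uchl1 was followed by Skp1a, the linker of cullin ligases, with 1789, 1132, 944 and 989 FPKM in tubes 1 to 4, and by the polyubiquitin gene Ubb with 1512, 1269, 613 and 968 FPKM. Both were highest in tube 1. Ube2c, a conjugating enzyme of the anaphase-promoting complex, had 443 ± 96.6 FPKM (SD, n = 4), Elob and its relative Elobl 339 ± 29.7 FPKM (SD, n = 4) and 257 ± 98.4 FPKM (SD, n = 4), and Rnf7 and Rbx1, the RING subunits of cullin ligases, 263 ± 61.4 FPKM (SD, n = 4) and 108 ± 10.4 FPKM (SD, n = 4). The scaffold genes Cul1 and Cul3 were lower, at 48.98 ± 4.33 FPKM (SD, n = 4) and 33.5 ± 8.53 FPKM (SD, n = 4).

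Genes of redox and thiol defence, a list also chosen after the values were seen, had a median of 101 FPKM with 24 of 24 detected. This count and median depend on that choice too. Selenow, a small selenoprotein, had 590.1, 692, 584 and 579 FPKM in tubes 1 to 4, and Sod1, the cytosolic superoxide dismutase, 427, 428, 474 and 507 FPKM. Both varied little. The peroxidase gene Prdx1 had 405 ± 57.5 FPKM (SD, n = 4) and Gpx4, which shares 61.7% of its stretches with other genes, 192 ± 33.7 FPKM (SD, n = 4), whereas Gpx1 had 3.47 ± 1.53 FPKM (SD, n = 4) and Cat, catalase, 14.2 ± 3.22 FPKM (SD, n = 4).

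The X-linked Rhox homeobox cluster, known from reproductive tissues, was led by Rhox1 with 53.6, 81.05, 49.6 and 62.2 FPKM in tubes 1 to 4, and 8 of 14 measured members were detected, a share of 57.1% beside the 43.3% of all genes. This list, and that of histone genes, was chosen after the values were seen. Rhox6 had 2.74, 2.59, 25.3 and 5.83 FPKM and Rhox5 6.75, 9.43, 15.5 and 2.44 FPKM, both highest in tube 3. Rhox3a and Rhox12 were listed at 0 in every tube. Rhox2a, Rhox3a and Rhox4a share 93.4%, 96.7% and 89.7% of their 50-base stretches with other genes, so their values are uncertain. Of the histone genes, Hist1h4d, a replication-dependent H4 gene, reached 83.5, 104, 131 and 96.3 FPKM in tubes 1 to 4, above 16.4 ± 7.06 FPKM (SD, n = 4) for Hist1h4c and 10.02 ± 5.39 FPKM (SD, n = 4) for Hist1h4i.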
